A study of Mus musculus with 4 samples.

Results

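The 10 immediate early genes were followed in single-cell RNA profiles of mouse intestinal epithelium: Fos, Fosb, Jun, Junb, Jund, Egr1, Atf3, Ier2, Ier3 and Dusp1. They were taken by symbol, and all 10 were found among the 31054 features that each of the 4 deposited matrices lists. All came from mice with the Bmi1-GFP genotype, a reporter allele in which the Bmi1 locus drives a green fluorescent protein. The 4 libraries, 1 per group, were intestinal epithelium at embryonic day 12.5 (E12.5), at embryonic day 17.5 (E17.5), from the adult and from the irradiated adult. The tissue was dissociated and epithelial cells were isolated by flow cytometry before droplet capture with a 10x Chromium 3' kit. Radiation dose, time after irradiation, adult age, number of animals and sorting gate are not given in the sources used here. Each group being 1 library, nothing checks a difference against replicates and no test between groups was made. All intervals below are 95% intervals and cover counting error only.

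Immediate early genes are transcribed within minutes of a signal, from factors already present in the cell and without new protein synthesis. Growth factor receptors, calcium entry and stress act through MAP kinases on serum response factor and its partners and on CREB, and the resulting transcripts are short-lived. Fos and Jun family proteins pair to form the transcription factor AP-1, Egr1 is a zinc-finger factor, and Dusp1 encodes a phosphatase that switches the same kinases off. Enzymatic and mechanical dissociation of a tissue is itself known to switch these genes on. Every library here passed through dissociation and sorting, with no undissociated sample to compare, so transcription in the animal and transcription during preparation cannot be told apart at any level given here.

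Barcodes under 500 genes or over 20% mitochondrial counts were dropped, which left between 53.1% and 88.0% of barcodes per library. Clusters named as pancreatic or mesenchymal were set aside, and unnamed clusters were kept. The kept ones of E17.5 included 1 of 98 cells led by Ppy, left unnamed for its islet hormones. Another, of 91 cells led by Spp1, matched pancreatic progenitor markers but had none of them among its leading genes. All cells not set aside are called epithelial: 3906 at E12.5, 3473 at E17.5, 3597 adult and 3031 irradiated cells. These held 79182835, 62102750, 29808886 and 38753466 UMIs (unique molecular identifiers, which mark single captured RNA molecules). Their median was 18129 UMIs per cell at E12.5, 11654 at E17.5, 3607 in adult cells and 8554 in irradiated cells. Libraries shared between 6 and 12 barcodes pairwise. Of these, 1404 cells at E17.5, 2222 adult and 2081 irradiated cells were enteroendocrine-like, that is, hormone-secreting cells by their markers. No E12.5 cluster was so named: one of 150 cells matched the markers but was left unnamed for its low UMIs, and other clusterings gave the name to between 11 and 15 E12.5 cells. Levels are given per 1000000 UMIs of the same cells (CPM). Sums of this kind do not tell fewer cells with a transcript from less transcript per cell, so shares of cells with a UMI are given as well, after thinning each cell to 2000 UMIs. The 12 enteroendocrine markers summed to 66.8 CPM in the E12.5 epithelium and to between 18600 and 33530 CPM in enteroendocrine-like cells. A cluster of 53 epithelial cells at E12.5 was led by the collagen genes Col3a1 and Col1a1.

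The RefSeq table for GRCm38.p6 held the promoter of 8 of the 10 genes, all but Egr1 and Ier2. The 250 bases before the transcription start are shown 5′ to 3′ for the 5 genes that carried TGACG, the core of the cyclic AMP response element through which CREB acts, and for Ier3, whose levels followed another course below. Capitals mark matches on either strand to TGACG, to the full response element TGACGTCA, which holds that core on each strand, to the EGR site GCGNGGGCG and to the TATA box TATAAA.
Fos, chr12:85473640-85473889, plus strand: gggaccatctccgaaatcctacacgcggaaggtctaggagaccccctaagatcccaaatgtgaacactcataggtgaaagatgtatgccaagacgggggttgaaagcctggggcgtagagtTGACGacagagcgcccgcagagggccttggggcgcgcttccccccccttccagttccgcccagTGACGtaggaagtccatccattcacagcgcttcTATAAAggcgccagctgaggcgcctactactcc
Fosb, chr7:19310046-19310295, minus strand: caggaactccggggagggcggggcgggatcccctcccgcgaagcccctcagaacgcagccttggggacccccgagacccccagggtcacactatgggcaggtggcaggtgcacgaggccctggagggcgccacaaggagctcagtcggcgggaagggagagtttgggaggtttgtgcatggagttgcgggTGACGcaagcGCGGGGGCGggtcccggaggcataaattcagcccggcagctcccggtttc
Junb, chr8:84978749-84978998, minus strand: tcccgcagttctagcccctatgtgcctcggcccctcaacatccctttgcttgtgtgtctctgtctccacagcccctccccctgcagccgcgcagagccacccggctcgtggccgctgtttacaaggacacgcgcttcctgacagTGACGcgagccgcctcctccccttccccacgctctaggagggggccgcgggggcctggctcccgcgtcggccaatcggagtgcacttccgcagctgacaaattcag
Atf3, chr1:191183334-191183583, minus strand: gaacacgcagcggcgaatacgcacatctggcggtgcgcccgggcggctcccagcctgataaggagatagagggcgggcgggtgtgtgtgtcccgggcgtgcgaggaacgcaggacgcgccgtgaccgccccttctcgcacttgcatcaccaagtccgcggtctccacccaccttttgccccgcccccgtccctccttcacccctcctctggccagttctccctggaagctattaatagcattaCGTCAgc
Dusp1, chr17:26508473-26508722, minus strand: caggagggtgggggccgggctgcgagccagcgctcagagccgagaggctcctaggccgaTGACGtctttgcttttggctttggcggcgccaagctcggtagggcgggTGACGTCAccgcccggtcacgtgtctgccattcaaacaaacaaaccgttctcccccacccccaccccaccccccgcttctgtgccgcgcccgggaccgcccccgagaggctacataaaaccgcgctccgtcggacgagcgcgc
Ier3, chr17:35821463-35821712, plus strand: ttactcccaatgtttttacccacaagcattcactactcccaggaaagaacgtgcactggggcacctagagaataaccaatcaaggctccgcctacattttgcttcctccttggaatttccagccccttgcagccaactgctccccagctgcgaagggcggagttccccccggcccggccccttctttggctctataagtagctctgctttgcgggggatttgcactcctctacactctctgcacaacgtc
The core was present in 5 of 8 members against 17.7% of the 32817 promoter windows of the same length in the table. The full response element occurred in Dusp1 alone among the members (1.55% of all windows), the EGR site in Fosb (4.70%) and the TATA box in Fos (12.4%). Neither the AP-1 site TGANTCA (6.75% of all windows) nor the serum response element core known as the CArG box (1.47%) occurred in any of the 8 windows. Sites farther than 250 bases before the start lay outside the search, so their absence from the genes is not shown. Ier3, Jun and Jund held none of these letters. The Jund window lay before a start at base 70697739 of chromosome 8, whereas GENCODE starts the gene at 70698949. It therefore does not cover the bases next to the GENCODE start, and Jund is counted among the 8 with this limit. On the minus strand, the Atf3 and Dusp1 windows lay before starts at base 191183333 of chromosome 1 and 26508472 of chromosome 17. GENCODE starts these genes at 191218039 and 26562128, so both are counted with the same limit. The windows of Jun and Jund, which lacked the core as that of Ier3 did, are not shown. A match is a description of the letters and not a shown binding site, and a link between these letters and the levels was not tested. In the GENCODE annotation of GRCm38, Jun, Junb (Prdx2), Jund, Atf3 and Dusp1 overlap a gene on the opposite strand and Dusp1 2 models on its own strand, and the strand setting of the counting is not given in the sources used here.

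The summed level of the 10 genes in epithelial cells was 2446 CPM at E12.5, 3358 at E17.5, 6156 in adult cells and 6459 in irradiated cells. Among the AP-1 members, Fos stood at 226.5, 660.5, 1105 and 1211 CPM in that order of libraries. Fosb, a Fos paralogue, stood at 44.3, 134, 540 and 500.5 CPM. Both Fos genes were lowest at E12.5 and highest in the 2 adult libraries. Jun, the partner that Fos proteins need to bind DNA, was at 723, 721, 1503 and 1566 CPM, with the 2 embryonic libraries alike. Junb, which can restrain Jun, was higher in each library than in the one before, at 109, 285, 454 and 495.5 CPM, though its last step turned in some settings given below. Jund, the Jun paralogue typical of resting cells, was at 330, 476, 716 and 642 CPM. Atf3, a stress-induced member of the ATF/CREB family that also pairs with Jun proteins, was at 36.6, 158, 387 and 381 CPM.

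Egr1 was at 352, 362, 607 and 693 CPM, with its step between E17.5 and the adult. Ier2, a nuclear protein induced by growth factors, was at 588, 422, 552 and 600 CPM, and was lowest at E17.5. Dusp1 was at 26.8, 92.2, 279 and 347 CPM, higher in each library than in the one before, again with a last step that turned in some settings. Ier3, a radiation-inducible gene with a part in cell survival, followed none of these courses: it was at 10.0 CPM at E12.5, 47.0 at E17.5, 13.55 in adult cells and 22.55 in irradiated cells.

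**Figure D1:**
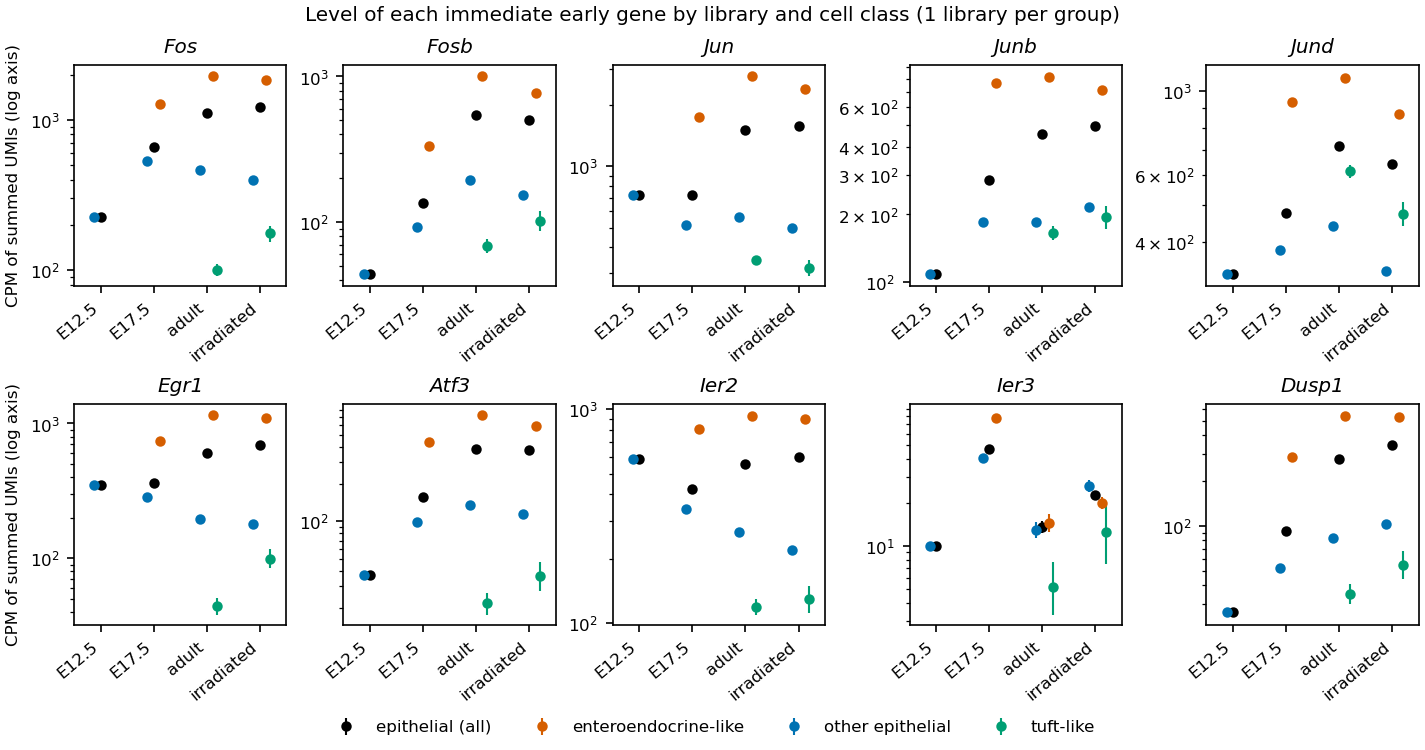
Level of each of the 10 genes (CPM, log axis) in the 4 libraries, for all epithelial cells (black), enteroendocrine-like cells (orange), other epithelial cells (blue) and tuft-like cells (green), with exact Poisson 95% intervals. Orange points lie above blue points in all panels except Ier3, where the 2 classes overlap in adult cells and the order turns in irradiated cells.

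Between E12.5 and E17.5 the early genes split into those that were higher later and those that were not. At least 2-fold higher at E17.5, on the scale log2 of (CPM + 1) used for all calls, were 6 of 10 members (Fos, Fosb, Junb, Atf3, Ier3 and Dusp1) against 15.3% of the 14555 genes with at least 50 UMIs over both libraries. None was at least 2-fold lower, against 16.7% of genes. Ier3 was 4.70-fold higher (4.34 to 5.09) and Atf3 4.31-fold (4.13 to 4.49). Dusp1 was 3.44-fold higher (3.28 to 3.62), Fosb 3.03-fold (2.92 to 3.16), Fos 2.92-fold (2.87 to 2.97) and Junb 2.61-fold (2.54 to 2.68). Jun had a ratio of 0.997 (0.985 to 1.01; its log2 ratio ran from -0.02 to 0.59 over 14 alternative settings) and Egr1 of 1.03 (1.01 to 1.05), while Ier2 was 1.39-fold lower (1.37 to 1.42). In other epithelial cells, that is without the enteroendocrine-like class, 4 of 10 were past 2-fold (Fos, Fosb, Atf3 and Ier3), against 12.8% of genes higher and 19.9% lower. The summed level there was 2526 CPM at E17.5 against 2446 at E12.5, a ratio of 1.03 (1.02 to 1.04). There, Jun and Ier2 were 1.41-fold (1.39 to 1.43) and 1.72-fold (1.69 to 1.75) lower.

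Between E17.5 and the adult, 4 of 10 members were at least 2-fold higher in all epithelial cells (Fosb, Jun, Atf3 and Dusp1), against 14.2% of genes, and Ier3 was the 1 member at least 2-fold lower, against 14.4%. Fosb was 4.02-fold higher (3.92 to 4.13), Dusp1 3.03-fold (2.93 to 3.14), Atf3 2.45-fold (2.39 to 2.52) and Jun 2.08-fold (2.06 to 2.11), and Ier3 was 3.47-fold lower (3.12 to 3.86). The first count was 2 when each cell had equal weight and 2 when cells were thinned to 2000 UMIs. Within classes the counts were smaller. Among enteroendocrine-like cells only Fosb was past 2-fold upward, at 335 CPM at E17.5 and 1001 in adult cells (2.99-fold, 2.877 to 3.1; 11.2% of genes higher), a count that was 3 with every barcode kept and 2 with a stricter cell filter. Ier3 was past 2-fold downward there, at 77.1 and 14.4 CPM (5.35-fold, 4.55 to 6.31; 8.88% of genes lower). Among other epithelial cells the same 2 genes passed, Fosb upward (10.0% of genes) and Ier3 downward (18.3%), and the summed level was 2526 CPM at E17.5 and 2547 in adult cells, a ratio of 1.01 (0.998 to 1.02). These were not the same kinds of cell: 974 of the 1375 adult cells were tuft-like and 216 Paneth-like, classes that no E17.5 cluster was given. Deeper cells also weigh more in these sums. The 127 adult cells of the unnamed cluster led by Mki67 had a median of 47260 UMIs and summed to 3633 CPM. In enterocyte-like cells, the absorptive lineage (589 cells at E17.5 and 58 in adult cells), Fosb, Atf3 and Dusp1 were higher by 3.43-fold, 3.76-fold and 4.45-fold (9.02% of genes higher, 23.5% lower), and the summed level was 1521 and 2403 CPM, a ratio of 1.58 (1.53 to 1.63). Ier3 was at 23.4 and 26.8 CPM in those cells, a ratio of 1.15 (0.844 to 1.53).

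None of the 10 members was at least 2-fold higher or lower in the irradiated than in the adult epithelium, against 2.88% of genes higher and 5.32% lower. The summed level was 1.05-fold higher (1.04 to 1.06), and lower with equal weight per cell (8355 against 8420 CPM) and with a stricter cell filter (6595 against 7056 CPM). Egr1 was at 607 and 693 CPM, Atf3 at 387 and 381, and Dusp1 at 279 and 347. Ier3 had the ratio farthest from 1, at 13.55 and 22.55 CPM (1.66-fold higher, 1.48 to 1.88). The direction of Fos, Jun, Junb, Egr1, Atf3, Ier2 and Dusp1 turned in at least 1 of 14 alternative settings, and that of Fosb, Jund and Ier3 in none. Genes called higher made up 35.1% of all called genes, and 48.1% when each cell had equal weight. In enteroendocrine-like cells 9 of 10 members were slightly lower, by at most 1.30-fold (Fosb, 1.27 to 1.33), again with none past 2-fold (1.53% of genes higher, 2.59% lower). The class was made up differently in the 2 libraries: the clusters in which Gip was most abundant held 155 and 906 adult cells and 141 and 304 irradiated cells, and the part of this make-up in the differences was not tested. In other epithelial cells none passed either (5.12% higher, 13.9% lower), with Ier3 nearest at 12.9 and 26.3 CPM, a CPM ratio of 2.04 (1.73 to 2.41) that is 0.97 on the log2 scale of the calls. In Paneth-like cells, the defensin-secreting crypt cells, none passed (3.49% higher, 17.9% lower), and Fosb, Ier2 and Egr1 were 1.65-fold, 1.66-fold and 1.64-fold lower. The median log2 ratio there was -0.38 over the members and -0.37 over all genes. Depth also differed, with 98 irradiated cells at a median of 97751 UMIs. The adult clusters of 141 and 75 cells had medians of 1926 and 30057 UMIs and sums of 3240 and 1923 CPM. The irradiated label was checked with another list. Of 13 targets of p53, the DNA damage factor, 11 were at least 2-fold higher in the irradiated epithelium. Phlda3 was at 1.98 and 95.35 CPM, Ccng1 at 22.3 and 176 CPM and Eda2r at 0.470 and 11.5 CPM.

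**Figure D2:**
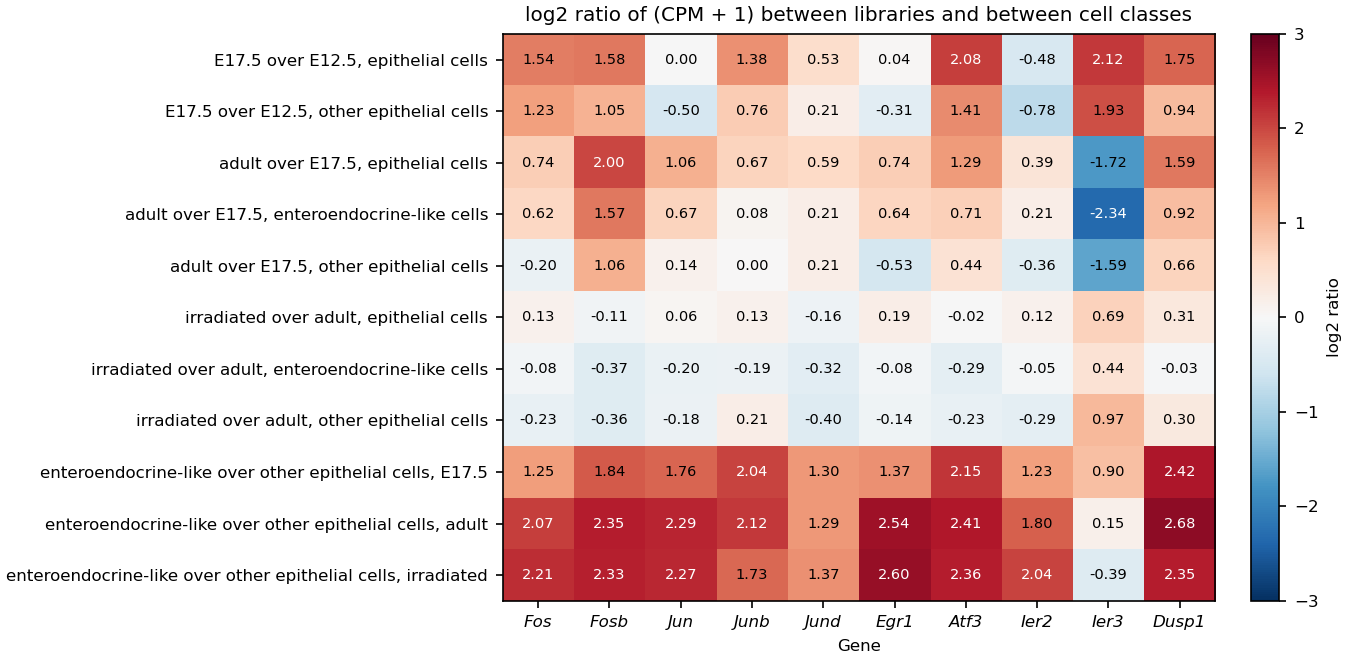
log2 ratios of (CPM + 1) for the 10 genes in 8 comparisons between libraries and 3 between cell classes within a library (red higher, blue lower). The 3 rows of irradiated over adult lie between -0.40 and 0.97, and the 3 rows of enteroendocrine-like over other epithelial cells are positive except Ier3 in irradiated cells, at -0.39.

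A wider contrast lay between cell classes. Enteroendocrine-like cells summed to 7395 CPM of the 10 genes at E17.5, 10970 in adult cells and 9732 in irradiated cells, whereas other epithelial cells of the same libraries summed to 2526, 2547 and 2238 CPM. Members at least 2-fold higher in enteroendocrine-like cells numbered 9 of 10 in each library, all but Ier3, against 21.9% of genes at E17.5, 28.5% in adult cells and 42.1% in irradiated cells. None was at least 2-fold lower, against 17.5%, 13.7% and 7.75% of genes. The other epithelial cells of E17.5 included the unnamed clusters led by Ppy and Spp1, which summed to 5334 and 3178 CPM. Their part in the E17.5 contrast was not tested. Other epithelial cells of the adult included the deep cluster led by Mki67 (127 cells, median 47260 UMIs), at 3633 CPM. Its part in the adult contrast was not tested either. In the adult Dusp1 stood at 541 against 83.5 CPM (6.48-fold, 6.12 to 6.87), Egr1 at 1155 against 197 (5.85-fold, 5.64 to 6.08) and Atf3 at 722 against 135 (5.35-fold, 5.11 to 5.60). Fosb was 5.13-fold higher (4.94 to 5.34), Jun 4.89-fold (4.781 to 5.002), Junb 4.36-fold (4.19 to 4.54) and Fos 4.20-fold (4.09 to 4.30). Ier2 was 3.496-fold higher (3.378 to 3.618) and Jund 2.45-fold (2.39 to 2.52). Ier3 had a ratio of 1.89 (1.74 to 2.05) at E17.5, 1.12 (0.913 to 1.36) in adult cells and 0.757 (0.658 to 0.870) in irradiated cells.

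Scaling bore on these counts. The median gene itself had a log2 ratio of 0.10, 0.40 and 0.82 in the 3 libraries, and with edgeR's TMM factors, which centre the bulk of genes, 6 members were past 2-fold at E17.5, 8 in adult cells and 7 in irradiated cells, where Ier3 then passed downward. With mitochondrial, ribosomal protein and defensin genes left out of the total the counts were 7, 8 and 8. The genes called higher made up 55.6%, 67.5% and 84.4% of all called genes in the 3 libraries as reported, 41.8%, 46.5% and 51.0% with TMM, and 44.2%, 49.4% and 67.4% with those genes left out. All members except Ier3 were higher in enteroendocrine-like cells in all 3 libraries under each of the 15 alternative settings, and the direction of Ier3 turned in 1, 2 and 1 of them. The class contrast was also present at matched depth. Among cells of 5000 to 10000 UMIs, enteroendocrine-like cells summed to 7555 CPM at E17.5, 12910 in adult cells and 12660 in irradiated cells, and other epithelial cells to 5959, 1409 and 2112 CPM. The narrow gap at E17.5 came with 217 other epithelial cells in that bin. Other epithelial clusters of E17.5 with a median depth inside it were 1 led by Akr1b7 and 1 unnamed led by Ppy. Their medians were 8470 and 7233 UMIs and their sums 8526 and 5334 CPM. Between 10000 and 20000 UMIs the E17.5 sums were 6629 CPM in enteroendocrine-like and 2829 CPM in other epithelial cells.

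**Figure D3:**
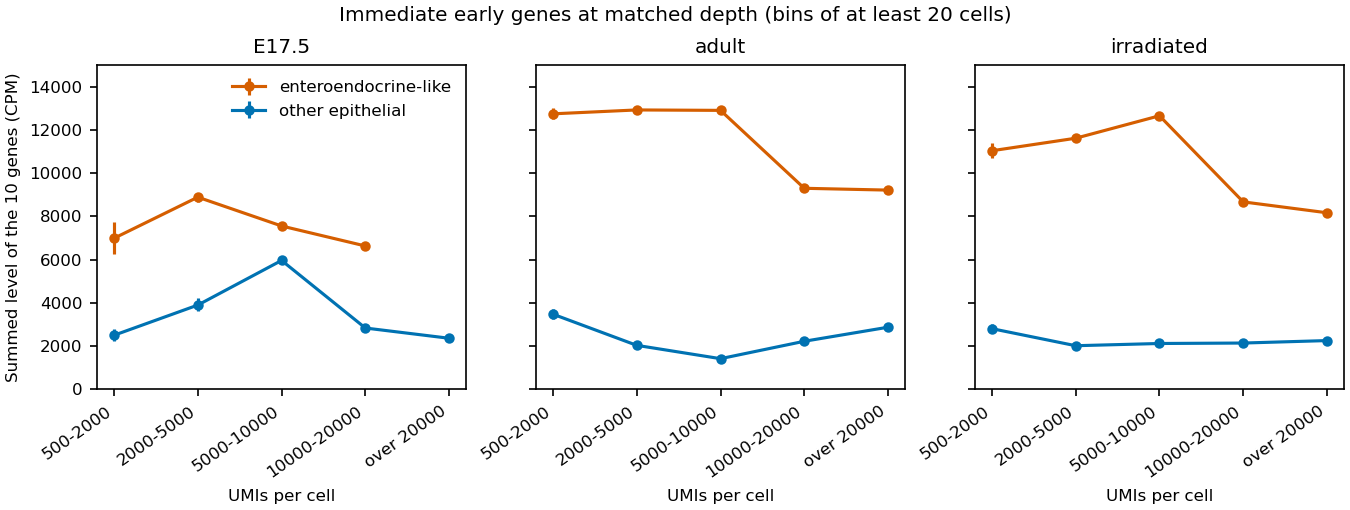
Summed level of the 10 genes (CPM) in enteroendocrine-like (orange) and other epithelial cells (blue) of the 3 later libraries, in bins of UMIs per cell, with exact Poisson 95% intervals. In the adult the orange points lie between 9217 and 12930 CPM and the blue points between 1409 and 3469 CPM.

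The share of cells with a UMI and the number of UMIs per cell also differed between classes. After thinning to 2000 UMIs, which left out 487 enteroendocrine-like and 73 tuft-like adult cells, Fos was detected in 88.4% (86.8% to 89.8%) of adult enteroendocrine-like cells and in 20.8% (18.2% to 23.6%) of adult tuft-like cells. Unthinned, the shares were 92.98% and 33.37%, at median depths of 3190 and 4113 UMIs. Egr1 was detected in 81.9% (80.0% to 83.7%) and 8.10% (6.40% to 10.1%) of these cells, and Atf3 in 57.5% (55.1% to 59.8%) and 3.44% (2.35% to 4.85%). No share of free RNA was estimated. The 8 Paneth markers summed to 4543 CPM in adult enteroendocrine-like and 5218 CPM in adult tuft-like cells, and the part of free RNA in the shares was not tested. The median adult enteroendocrine-like cell held 24 UMIs of the 10 genes per 2000 (10th to 90th percentile 7 to 40), against 3 in other epithelial cells (1 to 8). At E17.5 the medians were 14 (3 to 30) and 4 (1 to 13), and at E12.5 the epithelial median was 4 (1 to 9).

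Tuft-like cells, the chemosensory cells of the epithelium, had the lowest sum among adult classes, at 1519 CPM for the sum over 974 cells. Jund was at 613 CPM in them, against 346 for Jun and 101 for Fos, as UMIs of a 3' assay that do not scale with transcript length. Enteroendocrine-like over tuft-like, 9 of 10 members were at least 2-fold higher in adult cells (33.3% of genes higher, 10.6% lower) and 8 in irradiated cells (31.3% higher, 9.69% lower). Jund was under 2-fold in both and Ier3 in irradiated cells also. The Jund ratio was 1.76 (1.69 to 1.84) and 1.83 (1.70 to 1.97). Atf3 was 33.3-fold (27.4 to 41.0), Egr1 26.1-fold (22.7 to 30.1) and Fos 19.4-fold (17.7 to 21.3) higher than in tuft-like cells of the adult. From adult to irradiated tuft-like cells (274 cells), Egr1 was the 1 member past 2-fold, at 44.2 and 99.5 CPM (2.25-fold, 1.81 to 2.79), against 2.41% of genes higher and 1.50% lower. Of the 10 members 9 met the minimum of 50 UMIs in that comparison, Ier3 being the other. Genes called higher made up 61.7% of all called genes there, and 41.5% with TMM factors, under which no member was past 2-fold. The count was also 0 with equal weight per cell and 0 after thinning, and 2 with a minimum of 10 UMIs. The 12 enteroendocrine markers summed to 618 CPM in adult and 1968 CPM in irradiated tuft-like cells, with none of the 12 at 0, and their part in the Egr1 difference was not tested. A further 206 irradiated cells in 2 clusters carried endocrine and tuft markers together and were kept out of both classes. They summed to 7851 CPM, and with them counted as tuft-like 9 members were past 2-fold.

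**Figure D4:**
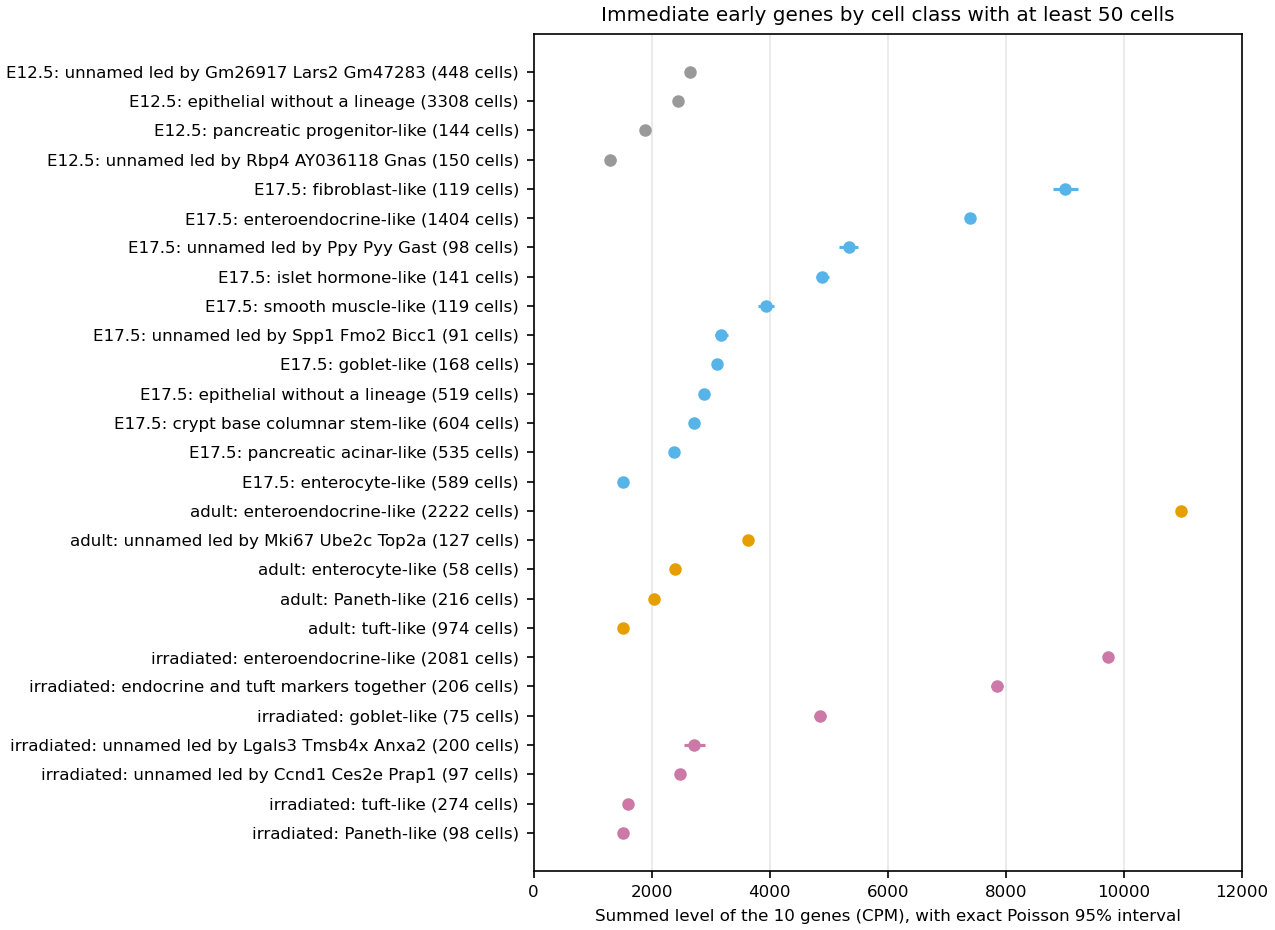
Summed level of the 10 genes (CPM, with exact Poisson 95% intervals) in each cell class of at least 50 cells, coloured by library. Enteroendocrine-like cells lead the adult and irradiated libraries at 10970 and 9732 CPM, and at E17.5 only fibroblast-like cells, at 9002 CPM, lie above their 7395 CPM.

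Paneth-like cells summed to 2034 CPM in adult cells and 1511 CPM in irradiated cells, and enterocyte-like cells to 1521 CPM at E17.5 and 2403 CPM in adult cells. Goblet-like cells, the mucus producers, summed to 3099 CPM at E17.5, where the defensin genes Defa24 and Defa17 led their cluster, and 4844 CPM in the 75 cells of the irradiated library. Cells at E17.5 with the markers of crypt base columnar stem cells summed to 2725 CPM, and the proliferating adult cluster led by Mki67, Ube2c and Top2a to 3633 CPM. Outside the epithelium, E17.5 fibroblast-like cells (119) held 2392 CPM of Fos and 1327 CPM of Junb and summed to 9002 CPM. Pancreatic acinar-like cells (535) of the same library summed to 2374 CPM. An epithelial cluster of 140 cells at E17.5, led by Akr1b7, Tff2 and S100a14, summed to 8526 CPM and held 541 CPM of Ier3, against 47.0 CPM in the epithelium of that library as a whole. Its leading genes also held Spp1 and Bicc1, as did those of the unnamed cluster led by Spp1, so it may not be intestinal. The part of this cluster in the E17.5 levels and ratios of Ier3 was not tested.

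Enteroendocrine-like cells were themselves uneven. Over 9 clusters at E17.5 the sum ran from 4263 to 12840 CPM, over 7 of the adult from 4515 to 15120, and over 11 of the irradiated library from 4965 to 14860. At the top stood clusters rich in Chga and in Tph1, the enzyme of serotonin synthesis that marks enterochromaffin cells. These summed to 12840 CPM (2183 CPM of Tph1) and 10630 CPM (2210) at E17.5, to 14840 (5726) and 15120 CPM (3145) in adult cells, and to 14860 CPM (3894) in irradiated cells. The order had exceptions in the irradiated library, where a cluster with 3001 CPM of Tph1 summed to 8691 CPM, and one of 74 cells led by Nts, with 557 CPM of Tph1, to 14470 CPM. Dusp1 was at 836 CPM in the first E17.5 cluster and at 67.5 and 187 CPM in the 2 clusters of that library led by somatostatin, which summed to 4263 and 6991 CPM. Fosb was at 775 CPM in the first and at 229 and 272 CPM in the other two. Clusters in which Gip, the hormone of K cells, was most abundant were low in both adult libraries, at 4515 CPM (289600 CPM of Gip) and 5647 CPM (260300 CPM of Gip). Only a cluster of 113 cells with a median of 1097 UMIs lay lower in irradiated cells, at 4965 CPM. Other clusters with 153800 and 180900 CPM of Gip, at median depths of 2320 and 2618 UMIs, summed to 11670 and 9339 CPM. Hormone transcripts took up to 32.8% of a cluster's UMIs. With 8 hormone genes left out of the total, the spread between clusters was 2.25-fold at E17.5, 2.39-fold in adult cells and 2.57-fold in irradiated cells, against 3.01-fold, 3.35-fold and 2.99-fold with them. On that scale the Nts-led irradiated cluster, at 16740 CPM, stood above the Tph1-rich one at 15130 CPM. In the adult the Tph1-rich clusters, at 15390 and 15820 CPM, were followed by others at 14260, 14120 and 13860 CPM. The cells were clustered without the 10 genes, and the hormones and Tph1 were chosen to describe the clusters after their values were seen.

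**Figure D5:**
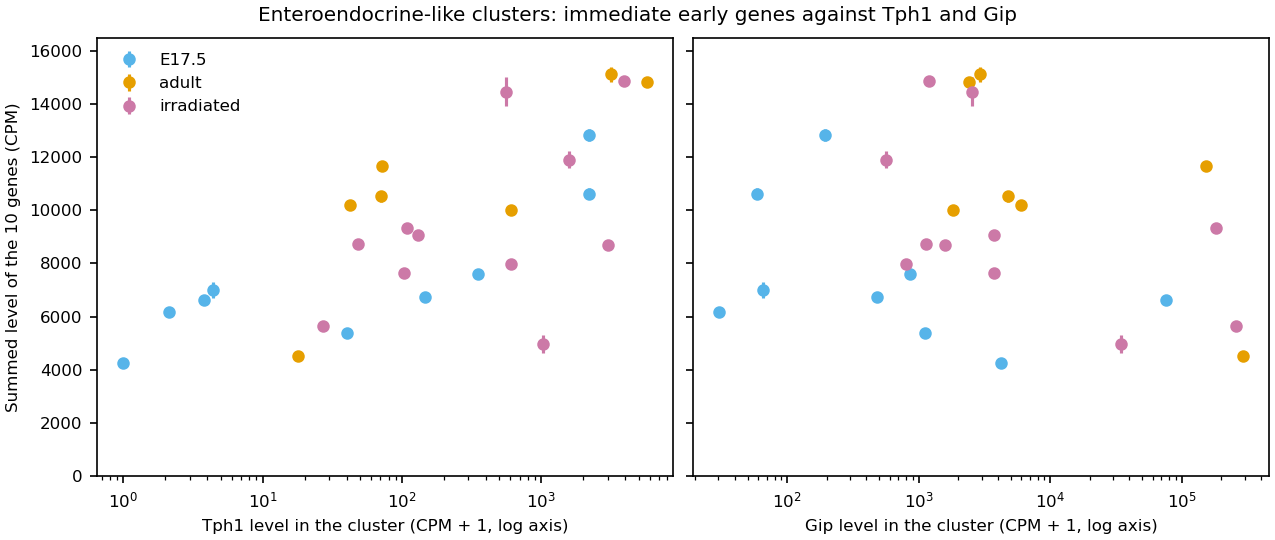
Summed level of the 10 genes (CPM, with exact Poisson 95% intervals) against Tph1 (left) and Gip (right) in each enteroendocrine-like cluster (CPM + 1, log axes), coloured by library. The 2 adult clusters richest in Tph1 stand at 14840 and 15120 CPM, and the clusters richest in Gip in the adult and irradiated libraries at 4515 and 5647 CPM.

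Over all enteroendocrine-like cells of a library, pooled across clusters, the members varied together. The clusters' sums differed by up to 3.35-fold, and correlations within a cluster are not given here. Over cells thinned to 2000 UMIs, the median correlation over the 45 pairs of members was 0.34 in 1367 enteroendocrine-like cells at E17.5, 0.26 in 1735 of the adult and 0.25 in 1826 of the irradiated library. It was 0.04 in 3212 E12.5 cells with general epithelial markers. Sparse counts can lower correlations, and their part in this value was not tested, so it is not read as a lack of joint variation. Fos and Jun were the closest pair at E12.5 (0.19), E17.5 (0.46) and in irradiated cells (0.44), and Fosb and Jun in adult cells (0.50). The lowest pair held Ier3 in all 4 libraries, between -0.04 and 0.05. Among other genes, Btg2, an early antiproliferative gene, was most like the members' sum in enteroendocrine-like cells of E17.5 (0.48), adult (0.55) and irradiated adult (0.48). Klf4, a differentiation factor of the epithelium, was among the 5 most alike in both adult libraries (0.38 and 0.47), and Id1 at E17.5 (0.41) and in irradiated cells (0.42). The actin genes Actg1 (0.37 at E17.5) and Actb (0.44 and 0.39 in the 2 adult libraries) were also among them. At E12.5 these were Klf6 (0.23), Cyr61 (0.22), Hes1 (0.18), Bex1 (0.18) and Vim (0.17).

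Across the 27 combinations of library and class with at least 50 cells, which share libraries and depth, the members' log2 levels also ran together (Pearson's r of log2 of CPM + 10, as a description). Fosb and Atf3 had r = 0.92, Fosb and Dusp1 0.91, Egr1 and Ier2 0.91, and Fos and Junb 0.90. For Ier3, the highest r with another member was 0.55 (Fos) and the lowest 0.16 (Fosb). Over 13717 genes with at least 200 UMIs, the gene most like Fosb was Btg2 (0.92), the most like Fos was Junb (0.90), and Klf2 came after Fosb for Dusp1 (0.90). Gadd45b had rank 3 for Fos (0.85), and Ppp1r15a, a stress-induced phosphatase subunit, was among the 3 most like Jun (0.85) and Junb (0.89). Jund was followed by Inafm1 (0.87) and Zfp36 (0.85) after Junb, and Ier2 by Pkdcc (0.86) after Egr1 and Jun. Ier3 was most like Igfbp7 (0.76), Smim19 (0.75) and Tmem159 (0.75), with no member among its 3.

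Other early genes were read from lists set by function, though chosen with earlier results of these data known. Of 17 further immediate early transcription factors, 14 were at least 2-fold higher and 2 lower in enteroendocrine-like than in other epithelial cells at E17.5, and 13 higher and 1 lower in each adult library. Of 30 early feedback genes and effectors, the numbers higher were 15, 18 and 18, and the numbers lower 5, 3 and 2. Of 12 relatives and partners of AP-1, of which 8, 9 and 9 met the minimum of 50 UMIs, 4, 8 and 6 were higher, and 0, 0 and 1 lower. Of 19 upstream kinases and factors, such as those of the MAP kinase cascade, 4, 8 and 14 were higher and none lower. Of all genes, 21.9%, 28.5% and 42.1% were higher and 17.5%, 13.7% and 7.75% lower in these comparisons, so that the upstream count at E17.5 lay near that share. Median log2 ratios were 2.07, 2.28 and 2.00 for the transcription factors and 0.36, 0.84 and 1.26 for the upstream list. The median over the 10 members was 1.56, 2.20 and 2.24, and over all genes 0.10, 0.40 and 0.82.

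Between libraries the lists gave mixed counts. Of the 17 transcription factors, 6 were at least 2-fold higher and 1 lower at E17.5 than at E12.5, 8 higher and 2 lower in adult cells than at E17.5, and 0 higher and 1 lower in the irradiated than in the adult epithelium. Of the 30 feedback genes the counts were 11 and 6, 13 and 3, and 3 and 0. The shares of all genes, higher and lower, were 15.3% and 16.7%, 14.2% and 14.4%, and 2.88% and 5.32%. Over all lists, the genes with the highest log2 ratio of (CPM + 1) at E17.5 over E12.5 were Cebpb (14.4 and 180 CPM), a leucine-zipper factor, Klf2 (1.53 and 23.4 CPM) and the heat shock gene Hspa1b (3.26 and 33.9 CPM). The lowest were Batf3 (10.5 CPM and 5 UMIs, or 0.0805 CPM), Cyr61 (249.4 and 63.0 CPM), a matrix-associated early gene, and Zfp36l1 (225 and 62.2 CPM), which promotes mRNA decay. In the adult over E17.5, Sik1 (2.45 and 35.5 CPM), Klf4 (47.0 and 348 CPM) and Klf2 (23.4 and 164 CPM) were highest. Hspd1 (1208 and 318 CPM), Cebpb (180 and 49.4 CPM) and Hspe1 (1723 and 485 CPM) were lowest. In the irradiated over the adult epithelium the 3 highest were p53 targets given above, and the lowest were Egr2 (49.3 and 22.3 CPM), a paralogue of Egr1, Hspe1 (485 and 260 CPM) and Hspd1 (318 and 187 CPM).

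Measures of preparation were set beside the members. A list of 13 heat shock genes, which stress during handling can also induce, was summed as well. The sum was 15900 CPM at E12.5, 10370 at E17.5, 6832 in adult cells and 6546 in irradiated cells, the opposite order to the members' sum. Single genes of the list went both ways. Hspa1b was at 3.26 CPM at E12.5 and 33.9 at E17.5. Hspe1 and Hspd1 were at 1723 and 1208 CPM at E17.5 and at 485 and 318 in adult cells. Of the 13 genes, 3 were at least 2-fold higher and 3 lower at E17.5 than at E12.5 (15.3% and 16.7% of all genes). By class the list summed to 7666 CPM in enteroendocrine-like and 10930 CPM in other epithelial cells at E17.5, and to 7856 and 6065 CPM in adult cells. The median mitochondrial share of epithelial UMIs was 4.41%, 3.69%, 9.77% and 5.05% in the 4 libraries. Adult enteroendocrine-like cells with at most 5% mitochondrial UMIs summed to 10290 CPM of the members and those between 15% and 20% to 13030 CPM, and the irradiated ones to 9660 and 11210 CPM. Other epithelial cells in the same bins summed to 1483 and 2181 CPM in the adult library, with 3558 CPM between 5% and 10%, and to 2111 and 2017 CPM in the irradiated one. The part of handling in any of these levels was not tested.

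The reporter gave little to compare. An eGFP UMI was present after thinning in 138 epithelial cells at E12.5, 11 at E17.5, 9 adult and 72 irradiated cells. At E12.5 the members summed to 2649 CPM (2460 to 2848) in cells with an eGFP UMI and 2432 CPM (2394 to 2470) in cells without. In irradiated enteroendocrine-like cells, where 59 cells had one, the sums were 10460 CPM (9882 to 11060) and 10520 CPM (10410 to 10620), with overlapping intervals.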

How the data were processed

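The deposited values are raw counts of UMIs per gene and barcode, whole numbers without normalization, in 1 matrix per library. Cell Ranger 3.1.0 and the build mm10 are named per the submitters' processing notes. How the authors selected barcodes is not given in the sources used here.

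Barcodes under 500 genes or over 20% mitochondrial UMIs were dropped. Doublets were scored with Scrublet (scanpy 1.11.5), and cells with the top scores were taken out at 0.8% per 1000 barcodes, because its automatic threshold marked between 0% and 0.565% of cells. Each library was clustered with the Leiden method (leidenalg 0.10.2, resolution 1, 2000 variable genes, 30 components, 20 neighbours), with the members and the listed early and heat shock genes left out of the variable genes. Clusters were named from 17 marker lists, and the naming thresholds were set after the clusters had been seen. Rebuilt names may differ from the study's own. A class is called X-like. Clusters with pancreatic, mesenchymal or other non-epithelial names were left out of the epithelium, unnamed clusters stayed in, and 2 irradiated clusters with endocrine and tuft markers together were kept out of all classes except the whole epithelium.

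UMIs were summed per library and class and scaled to CPM. A gene was counted as at least 2-fold different by log2 of (CPM + 1) if it had at least 50 UMIs over both sides; printed folds are plain CPM ratios. Levels carry exact Poisson, ratios exact conditional binomial and shares exact Clopper-Pearson 95% intervals, for counting error only. The scripts were tested on simulated data. Named genes are the 10 members, the 3 highest and 3 lowest listed genes in each epithelial comparison (with 100 UMIs or more on the higher side), and those most alike to the members. The members and gene lists were chosen with earlier results of these data known. Alternatives covered cell filters, doublets, scaling (edgeR 4.0.16 TMM), pseudocounts, count minimums, clustering and thinning.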

Additional observations from a re-analysis of the deposited data

Results flagged for a closer look

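Between the adult and the irradiated adult, 5 genes were higher in tuft-like cells and lower in enteroendocrine-like cells. On the log2 scale, Egr1 differed by 1.15 in tuft-like and by -0.08 in enteroendocrine-like cells. Fos differed by 0.79 and -0.08, Atf3 by 0.71 and -0.29, Fosb by 0.56 and -0.37, and Junb by 0.24 and -0.19. Junb was also higher in other epithelial cells, by 0.21. The enteroendocrine markers summed to 618 CPM in adult and 1968 CPM in irradiated tuft-like cells, and their part in these differences was not tested. Egr1 was not past 2-fold in tuft-like cells with TMM factors, with equal weight per cell or after thinning. Between E17.5 and the adult, 3 genes were lower in other epithelial cells and higher in enteroendocrine-like cells: Fos by -0.20 against 0.62, Egr1 by -0.53 against 0.64 and Ier2 by -0.36 against 0.21. Other epithelial cells of these 2 libraries were not the same kinds of cell, as given above. In enterocyte-like cells (58 in the adult) the 3 genes were not lower. From E17.5 to the adult, Fos was at 283 and 471 CPM, Egr1 at 173.5 and 187 CPM and Ier2 at 185 and 197 CPM. With 1 library per group, the difference between the classes was not tested in any of these cases.

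Barcodes that failed the cell filter, which were used only where every barcode was kept as an alternative, also held the 10 genes. Their sum was 2036 CPM at E12.5, 2923 at E17.5, 4101 in adult cells and 4057 in irradiated cells, against 2426, 3377, 6156 and 6459 CPM in kept cells. Per 1000000 non-mitochondrial UMIs the sums were 3012, 4432, 6062 and 6094 in failed barcodes and 2545, 3524, 6722 and 6847 in kept cells.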

How the results depend on the processing

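Counts of members past 2-fold moved by over 1.5 times in 10 of 258 cases, and no called direction turned. For the adult over E17.5, the count higher was 2 with equal weight per cell and 2 after thinning in all epithelial cells (4 as reported), and 3 with every barcode and 2 with at least 1000 genes and at most 10% mitochondrial UMIs in enteroendocrine-like cells (1 as reported). With TMM factors 1 member was lower in irradiated enteroendocrine-like than in other epithelial cells (0 as reported). For irradiated over adult tuft-like cells the count higher (1 as reported) was 0 with TMM, 0 with equal weight per cell, 0 after thinning, 2 with a minimum of 10 UMIs and 9 with the clusters of mixed markers kept as tuft-like; the stricter cell filter gave no value there. The alternatives for contrasts between classes and for tuft-like cells were chosen after seeing the data.

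The summed epithelial level moved beyond counting error in 20 of 24 cases, and E12.5 was lowest in all. With TMM it was 2263, 3407, 6194 and 6839 CPM in the order E12.5, E17.5, adult and irradiated adult. With equal weight per cell it was 2535, 4813, 8420 and 8355 CPM, and with mitochondrial, ribosomal protein and defensin genes left out 3327, 4521, 8261 and 8571 CPM. At E17.5, the adult and the irradiated adult it was 3336, 5843 and 6069 CPM with every barcode and 3337, 6211 and 6524 CPM with doublets kept. The stricter filter gave 7056 CPM in adult cells and 6595 CPM in irradiated cells. The cause was not tested.

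No paired analysis was possible because each group is 1 library, and no library could be left out. Depth limits Ier3 most, with 24 UMIs or fewer in each tuft-like class. TMM shifted the median of all genes by 0.16 on the log2 scale between E12.5 and E17.5, with 6 members past 2-fold as before.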
